A study of Mus musculus with 12 samples.

Results

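The collagen chains of the vessel wall were taken as every gene of the deposited count table whose symbol begins with Col followed by a type number, the letter a and a chain number. The chains of cartilage (Col2a1, Col9a1, Col9a2, Col9a3, Col10a1, Col11a1 and Col11a2) were left out. This rule gave 37 of the 25284 genes in the table and used symbols and no measured value, though it was set with earlier results of these data known. They fell into 8 fibrillar chains, 6 chains of the type IV basement membrane network, 2 multiplexins, 6 type VI beaded filament chains, 1 anchoring fibril chain, 2 short chains of type VIII, 6 FACIT chains, 4 transmembrane chains and 2 others.

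The study asked how stimulation of the alpha 7 nicotinic acetylcholine receptor with the agonist AZ6983 affects the aorta of atherosclerosis-prone mice. All 12 mice were males of the apolipoprotein E deficient ApoE-/- strain on a C57BL/6 background, ate a high fat diet with added cholesterol and were 18 weeks old at the end. Subcutaneous osmotic minipumps delivered vehicle (cyclodextrin in saline) to 6 control mice, named C1 to C6, and AZ6983 at 50 µmol/kg per day to 6 mice, named A1 to A6, in both cases for 8 weeks. Total RNA of the thoracic aorta, depleted of ribosomal RNA, was sequenced, so every value is an average over all cells of the dissected vessel, and fewer cells of a type and less RNA per cell cannot be told apart. Both groups lack apolipoprotein E and ate the same diet, so the comparison is of AZ6983 with vehicle in diseased vessels, with no healthy vessel beside them.

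Collagens are proteins of 3 chains wound into a triple helix, in which glycine recurs at regular steps. In an artery, smooth muscle cells and adventitial fibroblasts make the fibrillar types I, III and V, which carry tension and form much of the fibrous cap of an atherosclerotic plaque. Type IV chains form the sheet-like network of the basement membranes under the endothelium and around each smooth muscle cell. The minor types decorate fibrils, link them to cells or form small networks of their own.

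Regulatory sequences of the chains are shown first because several members share a start region or move together across mice. The 250 bases upstream of the RefSeq transcription start (GRCm38, plus strand, 5′ to 3′) are given for Col1a2, Col3a1 and Col5a1. Of the fibrillar chains with a promoter entry, these stood highest per length in controls. The lower Col5a3, Col24a1 and Col27a1 also have an entry and are not shown. Capitals mark matches to the core of a TATA box, spelled TATAAA, matches to a CCAAT box, spelled by its name, and matches to a GC box, spelled GGGCGG. Each was searched on both strands, and none of them overlaps another in these letters.
Col1a2, chr6:4505368-4505617: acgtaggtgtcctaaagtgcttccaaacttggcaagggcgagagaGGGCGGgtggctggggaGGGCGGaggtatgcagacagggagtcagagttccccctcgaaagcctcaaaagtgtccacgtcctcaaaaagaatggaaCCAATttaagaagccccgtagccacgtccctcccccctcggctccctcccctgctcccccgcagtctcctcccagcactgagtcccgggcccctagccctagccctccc
Col3a1, chr1:45311288-45311537: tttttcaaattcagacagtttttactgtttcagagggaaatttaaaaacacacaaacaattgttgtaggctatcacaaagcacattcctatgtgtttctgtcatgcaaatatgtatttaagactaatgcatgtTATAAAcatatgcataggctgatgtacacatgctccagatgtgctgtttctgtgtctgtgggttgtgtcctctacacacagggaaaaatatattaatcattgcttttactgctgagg
Col5a1, chr2:27886175-27886424: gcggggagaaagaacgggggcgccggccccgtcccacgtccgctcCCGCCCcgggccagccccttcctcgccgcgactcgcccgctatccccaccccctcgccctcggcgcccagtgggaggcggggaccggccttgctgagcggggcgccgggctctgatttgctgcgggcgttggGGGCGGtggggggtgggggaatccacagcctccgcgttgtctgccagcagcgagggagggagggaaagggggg
The Col1a2 stretch held a CCAAT box 109 bases before the start and GC boxes 205 and 188 bases before it. The Col3a1 stretch held a TATAAA 117 bases before the start and neither of the other motifs. The Col5a1 stretch held GC boxes 73 bases before the start on the plus strand and 205 bases before it on the minus strand. These matches are descriptions of the letters in the window and not sites of binding.

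The 6 type IV genes lie as 3 head-to-head pairs, and for 2 of these the whole stretch between the facing starts (GRCm38, minus strand) is short enough to be shown, with a GC box again in capitals.
Col4a1 and Col4a2, chr8:11312805-11312826: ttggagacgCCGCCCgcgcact
Col4a3 and Col4a4, chr1:82586850-82586920: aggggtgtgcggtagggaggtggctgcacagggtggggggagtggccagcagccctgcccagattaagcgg
By the GENCODE M21 annotation, Col4a1 (minus strand, start 11312826) and Col4a2 (plus strand, start 11312805) overlap by the 22 bases printed. Col4a3 (plus strand, start 82586921) and Col4a4 (minus strand, start 82586849) are separated by the 71 bases printed. On chromosome X, Col4a5 (start 141475385) and Col4a6 (start 141474076) are 1308 bases apart. Among the other members, Col3a1 and Col5a2 are neighbours on chromosome 1 with 24.6 kb between them, Col6a1 and Col6a2 lie on chromosome 10 with 85.2 kb between them, and Col6a4, Col6a5 and Col6a6 follow each other on chromosome 9.

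A promoter window of 300 bases (250 before and 50 after the start) was available for 30 of the 37 members, in 32 windows. GC boxes were present in 20 of the 32 windows (62.5%), against 35.7% of the 32851 windows of all genes. CCAAT boxes were present in 11 (34.4%, against 37.4%) and TATAAA in 3 (9.38%, against 13.6%), namely in those of Col3a1, Col13a1 and Col17a1.

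As a class, the fibrillar genes had more exons of 54 bases than the others, with overlap between single genes. Fibrillar collagen genes are known for an ancestral exon of 54 bases, which codes for a whole number of glycine-led triplets. Of 446 internal coding exons in the 8 fibrillar genes, 49.1% were exactly 54 bases long, from 42.9% in Col1a1 to 56.9% in Col24a1, and 84.5% were multiples of 9 bases. In the type IV genes 4.23% of 284 such exons were 54 bases long, with 2.22% to 5.88% per gene, and 47.2% were multiples of 9. The beaded filament genes had 8.29% of 205 exons at 54 bases and the FACIT genes 21.1% of 318, with Col22a1 highest among the latter at 45.9%, above Col1a1. The transmembrane genes had 9.33% of 150 exons at 54 bases and 70.7% at multiples of 9, the latter within reach of single fibrillar genes such as Col5a1 (76.6%). Col8a1 and Col8a2 had no internal coding exon.

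Depth was similar in both groups. Counts assigned to genes numbered 23810036 to 35864666 per mouse, and the 37 chains took 0.824% to 1.16% of them in the control mice and 0.769% to 1.43% in the AZ6983 mice. The share of reads that fell on no gene was 8.02% to 12.7% in controls and 11.2% to 14.9% in AZ6983 mice, with A2 highest. Levels are given as CPM, counts scaled to the TMM-adjusted library size of each mouse. Mouse A4 carried T cell markers (793 CPM summed, against at most 21.4 CPM in any control) and epithelial markers (45.6 CPM against at most 2.86 CPM), A5 had 30.2% of its counts in 10 genes against 16.0% to 22.1% in the others, and the count column used for A1 holds only 3 of the 4 digits of its mouse number. Smooth muscle markers (Acta2, Myh11 and others) summed to 13438 to 17983 CPM in controls and 10424 to 18008 CPM in AZ6983 mice, and fibroblast markers to 1279 to 1578 and 1045 to 1662 CPM, so the labelled tissue carried its defining markers in every mouse. Of the bone markers, Bglap and Bglap2 had at most 2 counts in any mouse, whereas Ibsp had 323 in C5, 286 in C6, 11 to 45 in the other controls and 7 to 21 in AZ6983 mice. Brown fat markers summed to 2517 to 4056 CPM in controls and 2042 to 5223 CPM in AZ6983 mice, with medians of 3781 and 2266 CPM and 0 of 4 log2 fold changes above 0. Skeletal muscle markers summed to 3.72 to 438 CPM and 13.4 to 457 CPM, with 5 of 5 above 0. Over all tested genes 52.4% lay above 0. The 5 muscle values had standard errors of 0.964 to 1.15 and unadjusted p of 0.376 to 0.565 in edgeR's test. All 5 were high in C2, A2, A5 and A6, and also in C5, at 20.3 CPM (Ckm) to 79.2 CPM (Myh4), so they are not separate observations. The brown fat values had unadjusted p of 0.00720 (Elovl3) to 0.858 in edgeR's test. The part of these other tissues in the collagen values was not tested.

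Levels of single chains were compared with each other only per length, as CPM per kilobase of transcript. The interstitial chains led: in control mice Col3a1, the single chain of type III collagen, stood at 373 ± 60.3 CPM per kb (SD, n = 6) and Col1a2, a chain of type I, at 268 ± 34.0 CPM per kb. Next came Col18a1, the chain of type XVIII from which endostatin is cut, at 157 ± 21.9 CPM per kb, and Col4a1 at 146 ± 17.6 CPM per kb. Col3a1 and Col1a2 each stood above the next chain by more than their SD, whereas Col18a1 and Col4a1 did not differ beyond their spread. The place of Col1a2 depended on the length, since per kb of all its annotated exons together it was 115 CPM per kb, under Col4a1 at 130 and Col18a1 at 125, a scaling chosen after the values were seen.
Col1a1, the major chain of type I, stood at 85.5 ± 19.9 CPM per kb, level within its spread with Col6a1 (82.2 ± 4.32 CPM per kb), Col4a2 (73.6 ± 9.58 CPM per kb) and Col6a2 (68.0 ± 5.80 CPM per kb). Type I molecules hold more Col1a1 than Col1a2 chains, whereas the count per length here was lower for Col1a1. The order continued with Col14a1 (59.0 ± 8.87 CPM per kb), Col5a2 (58.5 ± 5.57 CPM per kb), Col6a3, Col4a5, Col5a1, Col4a6 and Col15a1, the last at 26.5 ± 5.63 CPM per kb. After Col15a1 the next chain, Col8a1, was at 9.65 ± 1.95 CPM per kb, and the remaining 21 were lower still, down to Col17a1 at 0.0121 CPM per kb.

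**Figure D1:**
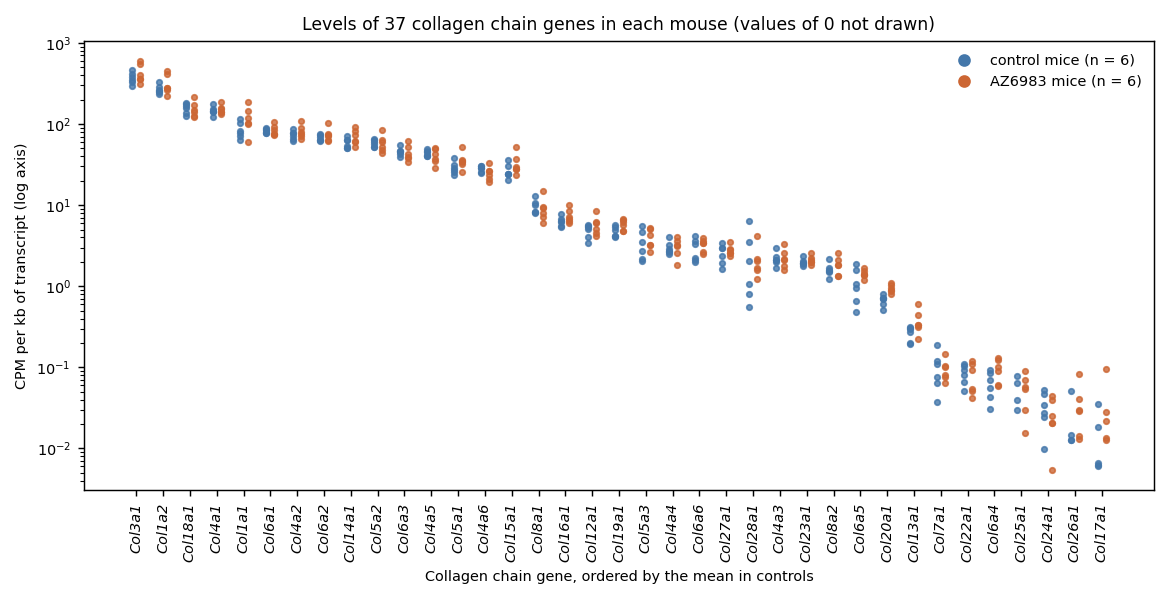
Level of each of the 37 collagen chain genes in each mouse, in CPM per kb of transcript on a log axis, ordered by the control mean, with 1 point per mouse (blue, 6 controls; orange, 6 AZ6983 mice). Col3a1 and Col1a2 lead, a step separates Col15a1 from Col8a1, and the blue and orange points of nearly every chain overlap.

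Of the counts on all collagen chains, not scaled for length, the fibrillar genes took 50.1% in control and 52.8% in AZ6983 mice, the type IV network 21.02% and 19.7%, the beaded filament chains 11.8% and 11.02%, the multiplexins 10.9% and 9.98% and the FACIT chains 5.29% and 5.71%. Col1a1, Col1a2 and Col3a1 alone took 39.5% to 45.6% of collagen counts in controls and 41.4% to 50.7% in AZ6983 mice, with A1 highest.
The spread among mice differed between chains. From the lowest to the highest of the 12 mice, Col23a1 varied 1.44-fold, Col6a1 1.48-fold and Col4a1 1.55-fold, whereas Col1a1 varied 3.13-fold and Col28a1 11.5-fold. Mouse A2 was the highest of the 12 for 22 of the 33 chains tested, and C1 and A4 were each the lowest for 7.

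The 33 chains with enough counts were compared between AZ6983 and control mice within a fit to all 15857 tested genes. None of the 33 passed a false discovery rate of 10%, with adjusted p from 0.447 to 0.9999 (edgeR quasi-likelihood test, Benjamini-Hochberg), as was so for all 15857 genes (0%). DESeq2 called 0 members as well, while it called 92 of 17592 genes (0.523%). At an unadjusted p under 0.05, 2 members were higher in AZ6983 mice (Col20a1 and Col19a1) and 0 were lower, together 2 of 33 where 10.2% of all tested genes had such a p and 7.38% were higher and 2.81% lower. The count of 2 was 1 without C1, C4 or C5, 8 without C6 and 6 without A4. The median log2 fold change of the 33 chains was 0.15, against 0.01 over all genes, and 24 of 33 lay above 0, against 52.4% of all genes. Both values changed with the fit and with A2. When the no-gene share of each mouse entered as a covariate, the median was −0.05 with 12 of 33 above 0 (0.013 and 53.8% over all genes). Without A2 the median was 0.05 with 19 above 0. All controls except C2 (12.7%) had a lower no-gene share than every AZ6983 mouse (11.2% or more). Share and treatment therefore cannot be told apart in the covariate fit, here and below. The standard errors of the 33 differences ran from 0.0958 to 0.534 on the log2 scale, with a median of 0.171.

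**Figure D2:**
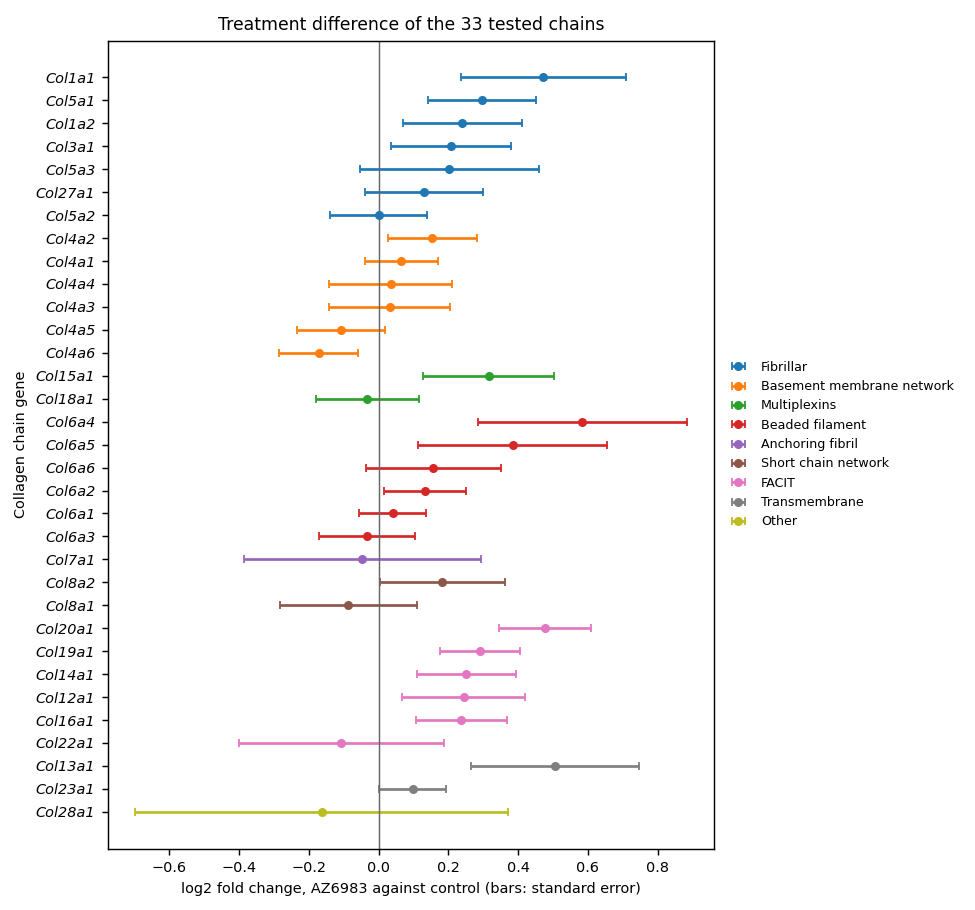
Log2 fold change of AZ6983 against control for the 33 tested chains, grouped by class, with bars of 1 standard error from the fit (6 mice per group). Fibrillar and FACIT chains lie mostly to the right of 0 and type IV chains on either side, and none passes the 10% false discovery rate.

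Among the fibrillar chains, 6 of the 7 tested had a log2 fold change above 0, with a median of 0.21, and 0 had an unadjusted p under 0.05. Of all tested genes 52.4% lay above 0 and 10.2% had such a p. Col3a1 ran from 1649 through a median of 2027 to 2583 CPM in controls and from 1727 through 2129 to 3314 CPM in AZ6983 mice. Col1a2 ran from 1244 through 1372 to 1744 CPM in controls and from 1172 through 1498 to 2376 CPM in AZ6983 mice. For both genes A1 and A2 lay above every control while the other 4 AZ6983 mice lay among the controls or below them. The log2 fold changes were 0.21 (SE 0.173) for Col3a1 and 0.24 (SE 0.171) for Col1a2, with adjusted p of 0.660 and 0.607 in edgeR's test. Without A2 they were 0.078 and 0.10, and with the covariate 0.028 and 0.078.
Col1a1 ran from 371 through 476 to 690 CPM in controls and from 358 through 652 to 1119 CPM in AZ6983 mice. The groups overlapped, with 3 AZ6983 mice above every control and A4 below every control. Its log2 fold change was 0.47 (SE 0.235), with an adjusted p of 0.508 in edgeR's test. Without A2 it was 0.28, and with the no-gene share as a covariate 0.11. Without A4 it was 0.61 and without C6 0.58 (unadjusted p = 0.00856 and 0.0337, adjusted p = 0.450 and 0.384 in edgeR's test). In DESeq2's test the unadjusted p of Col1a1 was 0.0437 and the adjusted p 0.457.

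The type V chains join type I fibrils and limit their diameter. Col5a1 ran from 199 through 234 to 316 CPM in controls and from 214 through 292 to 434 CPM in AZ6983 mice, and 1 AZ6983 mouse lay above every control. Its log2 fold change was 0.30 (SE 0.154), with an adjusted p of 0.525 in edgeR's test, and it was 0.15 without A2 and 0.011 with the covariate. Without A4 it was 0.37 and without C6 0.38 (unadjusted p = 0.0205 and 0.0262, adjusted p = 0.459 and 0.365 in edgeR's test). Col5a2 averaged 388 ± 36.9 CPM under vehicle and 388 ± 95.1 CPM under AZ6983 (SD, n = 6), with A2 above every control and 3 AZ6983 mice below every control. Its difference, within 2 standard errors, lay between −0.28 and 0.28 on the log2 scale.
Col5a3 and Col27a1 stood at 3.44 and 2.54 CPM per kb in controls, with control levels of 21.03 ± 8.52 and 19.3 ± 5.24 CPM and AZ6983 levels of 24.2 ± 6.49 and 21.1 ± 3.14 CPM. The fibrillar Col24a1 had at most 12 counts in any mouse and was not tested.

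**Figure D3:**
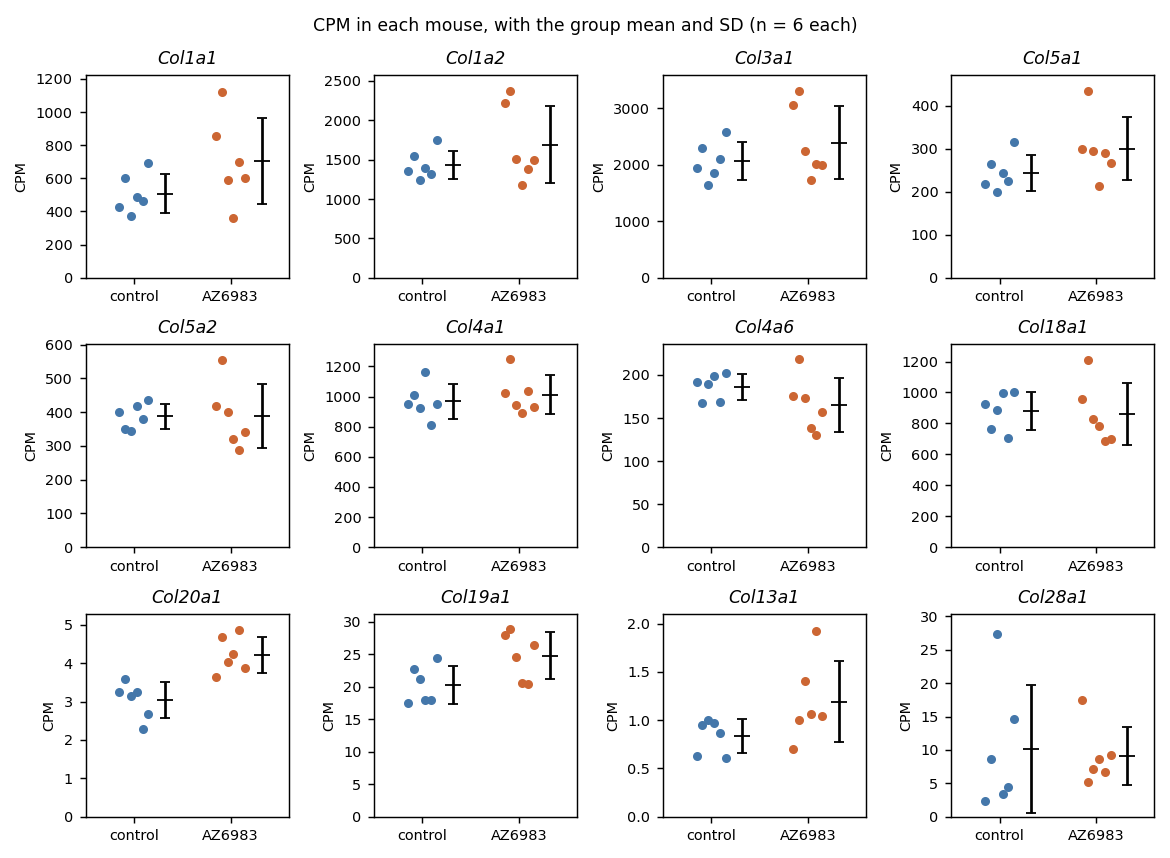
CPM of 12 chains in each mouse (1 point per mouse; horizontal mark and bar, group mean and SD, n = 6 per group; axes start at 0). The AZ6983 points of Col20a1 lie above all control points, whereas those of the other 11 chains overlap the controls.

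In the basement membrane network, Col4a1 and Col4a2, which form the type IV molecule found in most basement membranes, were the abundant chains. Col4a1 ran from 808 through 950 to 1164 CPM in controls and from 891 through 983 to 1250 CPM in AZ6983 mice, and Col4a2 from 397 through 482 to 564 CPM and from 426 through 494 to 707 CPM. The groups overlapped for both, and the log2 fold changes were 0.07 (SE 0.105) and 0.15 (SE 0.127), or −0.021 and 0.036 without A2.
Col4a5 and Col4a6, which assemble together in the basement membranes of smooth muscle, had negative values. Col4a6 ran from 167 through 190 to 202 CPM in controls and from 130 through 165 to 218 CPM in AZ6983 mice, with 3 AZ6983 mice below every control and A2 above every control. Its log2 fold change was −0.17 (SE 0.113), with an adjusted p of 0.584 in edgeR's test, and that of Col4a5 was −0.11 (SE 0.127). Without A2 they were −0.28 (unadjusted p = 0.0104, adjusted p = 0.548 in edgeR's test) and −0.20. Col4a3 and Col4a4, best known from the glomerulus, had control levels of 18.8 ± 3.72 and 30.3 ± 5.83 CPM and AZ6983 levels of 19.2 ± 5.17 and 31.0 ± 8.04 CPM. Col4a3 shares 5.65% of its exon bases with a gene on the opposite strand, and whether counting used strand is not given in the sources used here, so reads of the pair cannot be told apart.

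The multiplexins are basement membrane chains with interrupted helices. Col18a1 ran from 706 through 905 to 1004 CPM in controls and from 685 through 804 to 1211 CPM in AZ6983 mice, and its log2 fold change was −0.03 (SE 0.147), or −0.17 without A2. Col15a1 ran from 105 through 125 to 186 CPM in controls and from 122 through 148 to 268 CPM in AZ6983 mice. The fitted log2 fold change was 0.31 (SE 0.189), and it was 0.12 without A2, 0.40 without A4, 0.42 without C6 and −0.14 with the covariate. Both overlapped between groups, with adjusted p of 0.953 for Col18a1 and 0.557 for Col15a1 in edgeR's test.

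Type VI collagen forms beaded filaments that link cells to the matrix around them. Its 3 common chains were Col6a3 at 463 ± 53.7 CPM under vehicle and 453 ± 104 CPM under AZ6983, Col6a1 at 337 ± 17.7 and 347 ± 55.7 CPM, and Col6a2 at 268 ± 22.9 and 294 ± 60.8 CPM (SD, n = 6). Their log2 fold changes were −0.03, 0.04 and 0.13, and for Col6a1, whose standard error was the smallest of the 33, the range within 2 standard errors was −0.15 to 0.23. Per length, the alternative chains Col6a6 (2.92 CPM per kb in controls), Col6a5 (1.10 CPM per kb) and Col6a4 (0.0629 CPM per kb) were lower than those 3 (45.9 to 82.2 CPM per kb).
Col6a4 had the largest log2 fold change of the 33 chains, 0.58 (SE 0.299, adjusted p = 0.518 in edgeR's test), but on 6 to 34 counts per mouse. It ran from 0.223 through 0.467 to 0.680 CPM in controls and from 0.432 through 0.707 to 0.969 CPM in AZ6983 mice, with 3 of the latter above every control.

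Col8a1 and Col8a2 are the short chains of type VIII collagen, a network-former of endothelium and of smooth muscle in injured arteries. Col8a1 ran from 41.0 through 46.3 to 66.0 CPM in controls and from 30.7 through 43.6 to 75.3 CPM in AZ6983 mice. Col8a2 ran from 5.28 through 6.77 to 9.52 CPM and from 5.72 through 7.91 to 11.2 CPM. The groups overlapped for both, and the log2 fold changes were −0.09 (SE 0.197) and 0.18 (SE 0.180), or −0.29 and 0.047 without A2.

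The FACIT chains sit on the surface of fibrils or beside them. Of the 6, 5 had a log2 fold change above 0 (52.4% of all tested genes did), with a median of 0.25. Col14a1, which binds the surface of fibrils, was the most abundant and ran from 326 through 378 to 463 CPM in controls and from 338 through 435 to 594 CPM in AZ6983 mice. This gave a log2 fold change of 0.25 (SE 0.142), with 3 AZ6983 mice above every control, and of 0.14 without A2 and 0.012 with the covariate. Without A4 the Col14a1 value was 0.32 and without C6 0.31 (unadjusted p = 0.0294 and 0.0498, adjusted p = 0.480 and 0.418 in edgeR's test). Col12a1, a relative of Col14a1 in tissues under load, ran from 39.2 through 60.6 to 65.7 CPM and from 47.8 through 64.4 to 98.7 CPM. Its log2 fold change was 0.24 (SE 0.176), or 0.083 without A2, 0.32 without A4 and −0.23 with the covariate. The control mean of Col16a1 was 33.03 ± 4.51 CPM and its AZ6983 mean 38.9 ± 7.98 CPM.
Col20a1 was the 1 member of 33 whose groups did not overlap, where 0.41% of all tested genes had groups that did not. Its CPM in C1 to C6 were 3.24, 3.60, 3.14, 3.24, 2.29 and 2.69, and in A1 to A6 they were 3.64, 4.68, 4.04, 4.23, 4.86 and 3.88. The gap between the groups was narrow, from 3.60 CPM in C2 to 3.64 CPM in A1, and the values rest on 66 to 93 counts in controls and 98 to 159 in AZ6983 mice. Its log2 fold change was 0.48 (SE 0.132), with an unadjusted p of 0.00319 and an adjusted p of 0.447 in edgeR's quasi-likelihood test and an adjusted p of 0.110 in DESeq2. With the no-gene share as a covariate its log2 fold change was 0.38. Its unadjusted p was then 0.0644 in edgeR's test, and none of the 33 chains was under 0.05 in that fit. In every other alternative fit the unadjusted p of Col20a1 stayed under 0.05. With 1 mouse left out, its log2 fold change was 0.39 to 0.51. The unadjusted p in those fits was 0.00282 to 0.0104 and the adjusted p 0.259 to 0.719 in edgeR's test.
Col20a1 lies on chromosome 2 (GRCm38, 180986535 to 181018363, plus strand), and 1.54% of its exon bases are shared with another annotated gene on the same strand. Its promoter window held none of the 3 motifs.
Col19a1, a basement membrane zone chain, ran from 17.4 through 19.6 to 24.4 CPM in controls and from 20.5 through 25.4 to 28.9 CPM in AZ6983 mice, and 4 AZ6983 mice lay above every control. Its log2 fold change was 0.29 (SE 0.115), with an unadjusted p of 0.0252 and an adjusted p of 0.454 in edgeR's test. That unadjusted p was above 0.05 without any 1 of C1, C4, C5, A1 or A2 (0.0563 to 0.0703) and with library totals only (0.0617), and with the covariate the log2 fold change was 0.099 (unadjusted p = 0.513). The lowest FACIT chain was Col22a1, known from tissue junctions such as that of muscle and tendon, at 0.451 through 0.762 to 0.976 CPM in controls and 0.368 through 0.651 to 1.04 CPM in AZ6983 mice.

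Of the transmembrane chains, Col23a1 was the highest per length (1.98 CPM per kb in controls) and had the smallest highest-to-lowest fold of the 33 across mice, though not the smallest control CV (10.3%, against 5.25% for Col6a1), with a control mean of 11.2 ± 1.15 CPM and an AZ6983 mean of 11.99 ± 1.52 CPM (SD, n = 6). Col13a1, which takes part in cell adhesion, ran from 0.612 through 0.908 to 0.99997 CPM in controls and from 0.705 through 1.05 to 1.92 CPM in AZ6983 mice, on 18 to 47 counts. Of the AZ6983 mice, 5 lay above every control, and the log2 fold change was 0.51 (SE 0.240, adjusted p = 0.5001 in edgeR's test), or 0.30 without A5. Col17a1, a hemidesmosome chain of skin, had at most 5 counts in any mouse except A4, which had 20 and also carried the epithelial markers Krt5 and Krt8, whose part in that value was not tested. Col25a1 had at most 9 counts and Col26a1, which is not a transmembrane chain but classed among the others, at most 6, and neither was tested.
Col7a1, the anchoring fibril chain of skin, had a control mean of 0.915 ± 0.491 CPM and an AZ6983 mean of 0.878 ± 0.263 CPM.

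Col28a1, a chain known from the basement membrane around Schwann cells of peripheral nerve, varied more among mice than any other tested chain. It ran from 2.37 through 6.57 to 27.3 CPM in controls, with C3 highest and C1 lowest, and from 5.25 through 7.90 to 17.4 CPM in AZ6983 mice, with A1 highest. The AZ6983 values all lay within the control range, and the log2 fold change was −0.16 (SE 0.534).

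Ratios of 2 chains within a mouse do not depend on normalisation and were compared for 8 pairs of chains that share a molecule or lie side by side. None passed 10% after adjustment over the 8 pairs (two-sided exact permutation tests, every split of the 12 mice into 6 and 6). The counts of Col5a1 per count of Col5a2 were 0.630 ± 0.0890 in controls and 0.780 ± 0.116 in AZ6983 mice (SD, n = 6), and 3 AZ6983 mice lay above every control. The difference was 0.31 on the log2 scale (exact permutation p = 0.0238, adjusted p = 0.165). Without A4 the difference was 0.35 and the adjusted exact permutation p 0.0952, which passes 10%.
The Col8a1 to Col8a2 ratio was 7.17 ± 1.64 in controls and 5.79 ± 0.640 in AZ6983 mice, with 3 AZ6983 mice below every control. Its difference was −0.29 on the log2 scale (exact permutation p = 0.0411, adjusted p = 0.165). It leaned on C4, whose ratio was 10.3, and was −0.18 without that mouse (exact permutation p = 0.0823, adjusted p = 0.317).
The Col1a1 to Col1a2 ratio was 0.350 ± 0.0390 in controls and 0.410 ± 0.0703 in AZ6983 mice (difference 0.22 on the log2 scale, exact permutation p = 0.110, adjusted p = 0.221), and without A4 it was 0.30 with an adjusted exact permutation p of 0.0952. The Col4a1 to Col4a2 ratio was 2.04 ± 0.121 and 1.93 ± 0.136, that of Col4a5 to Col4a6 1.48 ± 0.0825 and 1.54 ± 0.127, and that of Col6a1 to Col6a2 1.26 ± 0.0497 and 1.19 ± 0.101. These 3 and the ratios of Col3a1 to Col5a2 and of Col4a3 to Col4a4 had exact permutation p-values from 0.0931 to 0.968.

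**Figure D4:**
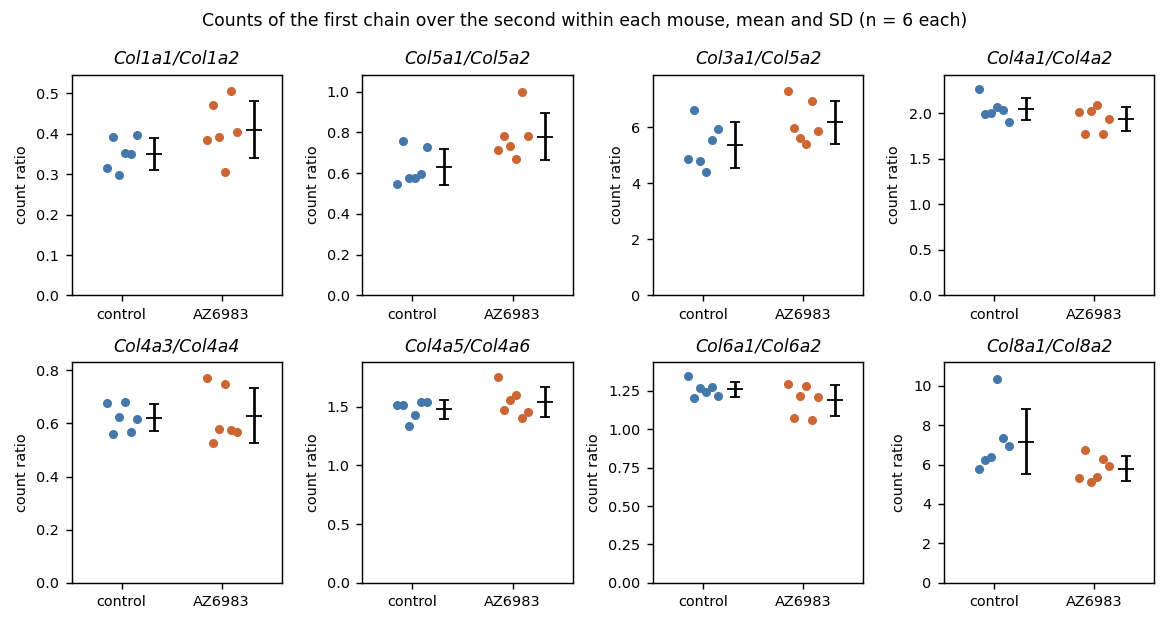
Counts of the first chain divided by counts of the second within each mouse, for 8 pairs (1 point per mouse; horizontal mark and bar, group mean and SD, n = 6 per group; axes start at 0). The Col5a1 to Col5a2 ratio is higher on average in AZ6983 mice (0.780 against 0.630) and the Col8a1 to Col8a2 ratio lower (5.79 against 7.17), with overlap in every pair.

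The levels of paired chains were then related to each other across mice. Across the 12 mice, log2 CPM of the 2 chains correlated with r = 0.921 for Col1a1 and Col1a2 (rho = 0.867, permutation p = 1e-05 and 6e-04) and with r = 0.925 for Col4a1 and Col4a2 (rho = 0.916, permutation p = 2e-05 and 7e-05). Within groups r was 0.972 in controls and 0.909 in AZ6983 mice for the type I pair, and 0.897 and 0.969 for the Col4a1 and Col4a2 pair. The smallest permutation p that 100000 draws can give is 1e-05, and all adjusted p given for these relations are over the 11 relations computed, of which 8 are given with a p. The others were picked after seeing the data, and including them can make the adjusted p of the 8 smaller. The permutation test is against no correlation, and A2 was the highest mouse for 22 of the 33 tested chains. It therefore does not set these partners apart from other pairs of chains.
For Col4a5 and Col4a6 r was 0.905 and rho 0.888 (permutation p = 7e-05 and 0.00028). For Col4a3 and Col4a4 r was 0.852 and rho 0.874 (permutation p = 0.00042 and 0.00054). For Col6a1 and Col6a2 r was 0.880 and rho 0.755 (permutation p = 0.00075 and 0.00585). Without the 2 mice farthest from the median these 5 pairs kept r of 0.837, 0.856, 0.805, 0.875 and 0.650, in the order given. Their adjusted p were at most 0.00919, and within groups r was 0.769 to 0.947 for the last 3 pairs.
The relation of Col5a1 to Col5a2 was weaker, with r = 0.622 and rho = 0.608 (permutation p = 0.0328 and 0.0382, adjusted 0.0328 and 0.0420). Without the 2 mice farthest from the median r was 0.188. Leaving out the farthest mice narrows the range of values, which can itself lower r, so the drop does not show that the relation rested on them. A like drop was seen for Col3a1 and Col5a2 (r = 0.715, rho = 0.643, permutation p = 0.00819 and 0.0281, adjusted 0.0100 and 0.0343, r = 0.426 without 2 mice) and for Col8a1 and Col8a2 (r = 0.690, rho = 0.524, permutation p = 0.0127 and 0.0832, adjusted 0.0139 and 0.0832, r = 0.273 without 2 mice). Within groups r for these 3 pairs was 0.551, 0.387 and 0.427 in controls and 0.819, 0.884 and 0.940 in AZ6983 mice.
For 2 pairs picked because they went together, and therefore given with no test, r was 0.957 and rho 0.923 for Col5a1 and Col1a1, and r was 0.914 and rho 0.979 for Col5a2 and Col4a5. Without 2 mice these r were 0.921 and 0.951.

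Genes that make, link and remove collagen were read from lists, and none passed 10% in edgeR's test. The shares to hold their counts against are the 7.38% of all tested genes that were higher and the 2.81% that were lower at an unadjusted p under 0.05. Of 28 processing genes, 3 were higher at an unadjusted p under 0.05 and 0 lower, with a median log2 fold change of 0.00. The 3 were Tll1, a procollagen C-proteinase relative (log2 fold change 0.48, control mean 3.23 CPM, AZ6983 mean 4.52 CPM), Adamts3, a procollagen N-proteinase (0.48, 2.73 and 3.80 CPM), and Colgalt2, a collagen galactosyltransferase (0.55, 2.28 and 3.35 CPM). Of 6 cross-linking genes 2 were higher and 0 lower, with a median of 0.14. They were Pxdn, the peroxidase that cross-links type IV collagen (0.28, 96.5 and 117 CPM), and Loxl2, a lysyl oxidase (0.26, 25.2 and 30.2 CPM).
Of the 14 tested basement membrane partners, 0 were higher and 1 lower, with a median of 0.17, the lower being the laminin chain Lamc3 (−0.35, 97.4 and 76.6 CPM). Of 14 fibril partners 0 passed in either direction (median 0.02), and the smallest p on each side belonged to Tnxb at 0.35 and Ogn at −0.27. Of 10 receptors 0 passed (median 0.06), and the smallest p on each side belonged to Gp6, the collagen receptor of platelets, at 2.07 (SE 0.96) and Lair1 at −0.41. The Gp6 value rested on A3, at 12.6 CPM, since the other AZ6983 mice had 0.149 to 2.49 CPM and controls 0.238 to 2.05 CPM. Of 9 degradation genes, 2 were higher and 1 lower (median −0.01). The collagenase Mmp8 (0.998, 1.87 and 3.75 CPM) and the gelatinase Mmp9 (0.51, 6.43 and 9.17 CPM) were higher, and the inhibitor Timp1 was lower (−0.66, 28.0 and 17.7 CPM). Another collagenase, Mmp13, lay below 0 (−0.81, 2.29 and 1.31 CPM), with an unadjusted p above 0.05. For Mmp13, 5 AZ6983 mice lay below every control and A2 above every control. Of the 9 genes, 4 had a log2 fold change above 0. Whether collagen breakdown differed between the groups was not tested.

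The 7 cartilage chains outside the rule were low in all mice except for Col2a1 in some. Col2a1 had 8 to 796 counts in controls, with C3, C5 and C6 highest, and 3 to 50 in AZ6983 mice. The other 6 chains had at most 147 counts in any mouse, reached by Col11a1 in A2.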

How the data were processed

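The authors sequenced ribosome-depleted, stranded total RNA of 12 thoracic aortas in paired reads and deposited whole-number counts per gene symbol. The submitters' processing notes name CASAVA 1.8.2, STAR 2.5.2b, HTSeq 0.6.1p1 and the mm10 build, with no settings. Rows that name no gene entered neither library sizes nor tests and held 8.02% to 14.9% (no gene), 18.1% to 23.2% (not unique) and 0.606% to 0.698% (ambiguous) of reads per mouse. Total RNA includes unspliced RNA, and how its reads were counted is not given. Sample labels gave the groups, with separate mice per sample and no batch or pairing. The chains and lists were chosen with earlier results of these data known.

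Each mouse had 23810036 to 35864666 counts on genes. Counts were fitted across all genes in edgeR 4.0.16 (R 4.3.3) with filterByExpr, TMM and the quasi-likelihood test, AZ6983 against control, at a Benjamini-Hochberg false discovery rate of 10%. Of the 37 chains 33 passed the filter, which kept 15857 genes. CPM values use TMM-scaled library sizes, standard errors come from the log2 fold change and the F statistic, and ranges span 2 standard errors. Log2 CPM for relations and scores used a prior count of 2, and chain ratios added 0.5 to each count. Levels per kb used the transcript with the longest coding sequence in GENCODE M21 (GRCm38, the mm10 build). Promoter windows came from RefSeq (GRCm38.p6). Alternatives were DESeq2 1.42.0, limma-voom (limma 3.58.1), RLE size factors, library totals, other count filters, the no-gene share as a covariate and each mouse left out. Leaving out A1, A4 and A5 together was chosen after seeing the data. Named were all chains of the main types, the 5 chains of smallest unadjusted p in each direction and up to 3 leading genes per list and direction. One relation across mice and the marker list it used are not reported here. Scripts were tested on simulated data.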

Additional observations from a re-analysis of the deposited data

How the results depend on the processing

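None of the 33 tested chains passed 10% under any alternative. Across all genes, DESeq2 called 92, edgeR with library totals only called 2, edgeR without A1, A4 and A5 called 12, and edgeR with 1 mouse left out called 0 to 27, the highest without A5. The number of chains with an unadjusted p under 0.05 was 0 with each mouse's no-gene share as a covariate, 5 without A1, A4 and A5, and 1 to 8 with 1 mouse left out. The median log2 fold change of the chains was −0.05 with the covariate and 0.05 to 0.23 with 1 mouse left out, and 12 chains lay above 0 with the covariate and 19 to 28 with 1 mouse left out. The cause of these shifts was not tested. The covariate fit cannot tell the no-gene share from treatment, because the share differed between the groups. The pair differences with 1 mouse left out ran from 0.15 to 0.30 on the log2 scale for Col1a1 over Col1a2, from 0.23 to 0.36 for Col5a1 over Col5a2 and from −0.058 to 0.052 for Col4a3 over Col4a4.

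Single chains changed sign as follows, in log2 fold changes that did not pass 10% on either side. With the covariate, Col12a1 was at −0.23, Col15a1 −0.14, Col23a1 −0.055, Col27a1 −0.11, Col4a1 −0.017, Col4a2 −0.048, Col4a4 −0.20, Col5a3 −0.12, Col6a1 −0.061, Col6a2 −0.093, Col6a5 −0.22 and Col6a6 −0.20. Without A1, A4 and A5, Col18a1 was at 0.038, Col22a1 0.34, Col4a3 −0.050, Col5a2 0.14, Col6a3 0.048 and Col8a1 0.12. With limma-voom, Col28a1 was at 0.24, Col7a1 0.11 and Col4a4 −0.000395, and with genes of a mean of 50 counts or more Col5a2 was at 0.0080. With 1 mouse left out, the ranges that crossed 0 were −0.17 to 0.021 for Col18a1, −0.26 to 0.00059 for Col22a1, −0.46 to 0.43 for Col28a1, −0.021 to 0.12 for Col4a1, −0.11 to 0.14 for Col4a3, −0.080 to 0.15 for Col4a4, −0.14 to 0.053 for Col5a2, −0.055 to 0.075 for Col6a1, −0.0028 to 0.18 for Col6a2, −0.16 to 0.033 for Col6a3, −0.22 to 0.21 for Col7a1 and −0.29 to 0.013 for Col8a1. No paired analysis was possible because the labels pair no control mouse with an AZ6983 mouse. Chains under about 50 counts per mouse (Col13a1, Col6a4, Col22a1 and Col7a1) are limited by counting error as well as by the spread between mice.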
